A study of Mus musculus with 21 samples.

Results

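The 41 genes described here are transcripts of macrophages and of leukocytes at large, and they were followed in tumours grown from the mouse prostate cancer line Myc-CaP. They were taken by symbol from the plain table of estimated counts, in which all 41 were found among 45706 genes. The list holds 4 genes of leukocytes in general, Ptprc, Cd53, Laptm5 and Coro1a, and 37 genes of monocytes, macrophages and macrophage states known from tumours. The rule uses no measured value, but the list was chosen with earlier results of these data known. Each was read in 13 tumours, as its own level and as a ratio to the 4 general leukocyte genes, with 8 libraries of cultured cells as the background.

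Myc-CaP is an established line from a mouse prostate tumour driven by a Myc transgene. The cells were wild type (WT) or knocked out (KO) with CRISPR-Cas9 and 1 guide RNA for Ern1, the gene of the endoplasmic reticulum stress sensor IRE1α, in 3 lines called KO1, KO2 and KO3. All lines, WT included, carry the Myc transgene, and no drug or other treatment is given in the labels. Tumours were grafts of these cells in FVB mice, with 4 WT tumours and 3 of each KO line, and the cell libraries were 2 WT and 2 of each KO line. The WT cells are 1 line, so that line and genotype are not replicated in WT, and the sources used here do not say whether a KO line is 1 clone. The edit was made in the cancer cells, and no edit is given for the host mice, whose leukocytes enter the tumour. The sources used here give neither the age nor the sex of the mice. In bulk tumours, fewer cells of a type and less RNA per cell cannot be told apart.

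Macrophages enter tumours as blood monocytes or arise from macrophages of the tissue, and they depend on the growth factor receptor that Csf1r encodes. They engulf cells, bind antibody through Fc receptors, make the complement protein C1q and degrade what they take up in lysosomes. In tumours they are known for supporting vessels and matrix and for restraining T cells. The transcription factor PU.1, encoded by Spi1, directs myeloid genes and binds a core of the letters GAGGAA.

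Total counts ran from 15994285 to 27497796 in tumours and from 18105538 to 25068254 in cells. Ern1 was at 64.6 to 84.0 CPM, a count normalised to the size of its library, in WT tumours and 60.3 to 92.0 CPM in KO tumours. In cells, where no host tissue is mixed in, it was at 118 and 133 CPM in WT and 171 to 196 CPM in KO, higher in KO, and counts per gene cannot show the short edits that a guide leaves. A pair of WT tumours stood apart from the others. WT tumour 1 had a summed level of 10 neutrophil markers of 318 CPM against 5.25 to 8.41 CPM in the other WT tumours, of 8 skeletal muscle markers of 4779 CPM against 1.25 to 61.9, and of 5 erythroid markers of 1298 CPM against 106 to 407. Of the neutrophil markers, Camp was at 0 counts in all 13 tumours and Ngp in all but WT tumour 2. In WT tumour 4 the gene Yam1, at a ribosomal RNA locus, took 24.0% of the counts. WT tumours 3 and 4 have the same number in their descriptions, which do not say whether it marks 1 mouse.

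The results below turn on the complement genes C1qa, C1qb and C1qc, on Mpeg1, which encodes the pore-forming protein perforin-2, on Ms4a7, a membrane protein of macrophages, on Adgre1, which encodes the macrophage marker F4/80, and on Pf4, a chemokine of platelets and of some macrophages. In GRCm38 C1qb (chromosome 4, 136880129 to 136886187), C1qc (136889804 to 136893065) and C1qa (136895917 to 136898803) lie side by side on the minus strand. Mpeg1 (12460779 to 12465283, plus strand) and Ms4a7 (11321039 to 11336146, minus strand) are on chromosome 19, Pf4 (90772435 to 90773383, plus strand) on chromosome 5 and Adgre1 (57358691 to 57483527, plus strand) on chromosome 17. The 250 bases before the RefSeq start of 5 of them are shown. The gene positions above are from another annotation of GRCm38, and its starts can differ from those of RefSeq. The C1qc window, from 136892915 to 136893164, lies partly inside the gene as placed above, which begins at 136893065 on the minus strand. C1qb, Mpeg1 and Ms4a7 differed together between KO lines, C1qc is the matched neighbour of C1qb, and Pf4 had the lowest fold change in KO tumours. The sequences are from RefSeq on GRCm38.p6, each 5′ to 3′ on its gene's strand, in lower case with GAGGAA or its reverse complement TTCCTC in capitals. For Ms4a7, which has 2 starts in the table, the farthest upstream is shown.
C1qb (chr4:136886201-136886450, minus strand): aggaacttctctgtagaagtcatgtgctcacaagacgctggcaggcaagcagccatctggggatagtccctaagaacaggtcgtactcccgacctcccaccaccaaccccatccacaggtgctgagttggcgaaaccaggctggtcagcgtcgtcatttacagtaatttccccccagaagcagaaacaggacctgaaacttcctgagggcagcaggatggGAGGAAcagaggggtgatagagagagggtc
C1qc (chr4:136892915-136893164, minus strand): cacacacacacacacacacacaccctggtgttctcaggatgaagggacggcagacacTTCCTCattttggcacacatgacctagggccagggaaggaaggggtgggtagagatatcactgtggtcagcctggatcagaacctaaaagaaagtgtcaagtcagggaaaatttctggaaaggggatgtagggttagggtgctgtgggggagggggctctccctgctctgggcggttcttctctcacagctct
Mpeg1 (chr19:12460520-12460769, plus strand): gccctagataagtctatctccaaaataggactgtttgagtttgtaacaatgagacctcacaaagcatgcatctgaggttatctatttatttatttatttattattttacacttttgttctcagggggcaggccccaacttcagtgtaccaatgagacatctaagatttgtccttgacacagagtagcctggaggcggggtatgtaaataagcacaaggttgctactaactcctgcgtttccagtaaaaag
Ms4a7 (chr19:11336147-11336396, minus strand): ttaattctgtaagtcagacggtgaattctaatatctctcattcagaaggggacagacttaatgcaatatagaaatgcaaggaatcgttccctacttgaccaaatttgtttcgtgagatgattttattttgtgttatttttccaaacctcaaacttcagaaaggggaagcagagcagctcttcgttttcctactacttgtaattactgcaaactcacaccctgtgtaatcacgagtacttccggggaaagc
Pf4 (chr5:90772185-90772434, plus strand): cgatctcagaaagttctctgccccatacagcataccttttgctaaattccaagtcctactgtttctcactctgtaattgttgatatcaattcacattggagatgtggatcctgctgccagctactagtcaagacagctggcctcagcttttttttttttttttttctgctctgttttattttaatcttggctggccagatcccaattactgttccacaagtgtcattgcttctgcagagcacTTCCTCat

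The letters GAGGAA stood in the C1qb window on the gene's own strand, with the first base 30 bases before the RefSeq start (position -30). They stood in the C1qc and Pf4 windows on the opposite strand, at -193 and -8 from the RefSeq starts. They were in neither the Mpeg1 nor the Ms4a7 window. Promoter windows of 250 bases were matched for 32 of the 41 genes, 41 windows in all. On either strand, GAGGAA was found in 19 of these windows (46.3%), against 7639 of 32851 windows (23.3%) of all genes. GAGGAAG, which contains GAGGAA, was found in 11 windows (26.8%) against 3486 (10.6%). A match is a description of letters and not a binding site. Adgre1, C1qa, Cd14, Cd86, Csf1r, Itgb2, Lyve1, Msr1 and Tyrobp had no matched window.

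Cultured cells had few of these transcripts. All 8 cell libraries were at 0 counts for 18 genes, among them C1qa, C1qb, C1qc, Adgre1, Cd53 and Laptm5, and 27 genes had at most 3 counts over the 8 libraries together. A mean of at least 10 CPM was found for 3 genes. Gpnmb, a glycoprotein of lysosomes and of melanosomes, was at 929.8 to 1650 CPM in cells, above its 128 to 548 CPM in tumours. Spp1, the secreted matrix protein osteopontin, was at 242 to 419 CPM in cells and 383 to 699 CPM in tumours. Mertk, a receptor for the uptake of dying cells, was at 14.4 to 17.9 CPM in cells and 3.60 to 7.17 CPM in tumours. Cd14, a co-receptor for bacterial lipopolysaccharide, was at 5.596 to 9.03 CPM in cells, within the range of 4.37 to 9.79 CPM of the tumours other than WT tumour 1. The defining macrophage and pan-leukocyte genes were near 0 in cells, whereas counts of Gpnmb, Spp1, Mertk and Cd14 in tumours do not separate cancer cells from host cells.

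In the test of tumours against cells, 40 of 41 genes passed at an adjusted p under 0.05 by the quasi-likelihood F test of edgeR, where 78.8% of all 15173 genes tested passed. Of these 38 were higher in tumours, against 46% of all genes, and 2 were lower, against 32.8%. The lower genes were Gpnmb, with a log2 fold change of -2.08 ± 0.15 (SE), and Mertk, with -1.60 ± 0.08. Spp1 was higher by 0.64 ± 0.10 on that scale, and Cd14 did not pass (0.41 ± 0.34, adjusted p = 0.281 by edgeR). No fold change is given for genes at 0 counts in cells, since it would be set by the prior count. Apoe, a lipid carrier that macrophages secrete, stood at a mean of 2.04 CPM in cells and 509 CPM in tumours, and the lysosomal marker Cd68 at 2.13 and 35.7 CPM.

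**Figure D1:**
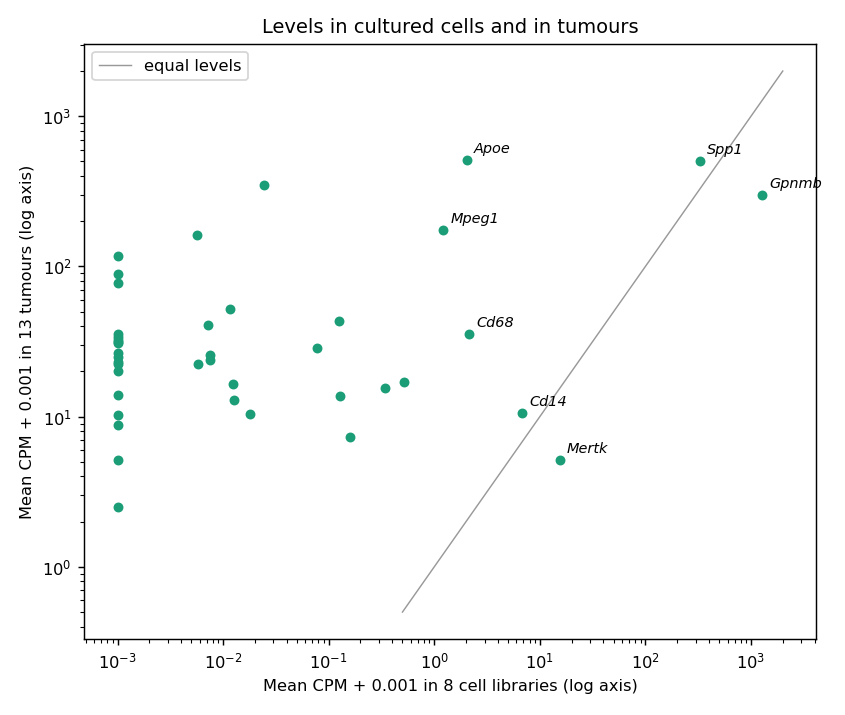
Mean level of the 41 genes in the 8 cell libraries (x axis, CPM + 0.001, log axis) against the mean in the 13 tumours (y axis, CPM + 0.001, log axis), 1 point a gene, with the line of equal levels. Most points stand near the left edge, at or close to 0 in cells, and of the 7 named genes at 1 CPM or more in cells Gpnmb and Mertk lie below the line.

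Per kilobase of exon, which allows genes to be compared, the highest mean tumour levels were those of Spp1 (307 CPM per kb), of Lyz2, the lysozyme of myeloid cells (263), and of Apoe (238). Ctss, a protease of antigen processing, followed at 119, C1qa at 113 and C1qb at 71.8 CPM per kb. The lowest was Cd86, a costimulatory ligand of T cells, at 0.687 CPM per kb. Lyz2 has the near-identical copy Lyz1, and Fcgr3 and Fcgr2b share stretches of sequence, so that the split of reads within these pairs is uncertain.

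The general leukocyte genes varied several-fold among tumours, mostly with WT tumour 1 and line KO1 at the top. Ptprc, the leukocyte phosphatase CD45, was at 35.3, 13.7, 15.4 and 10.1 in WT, 45.6, 28.1 and 20.9 in KO1, 22.2, 20.1 and 16.1 in KO2 and 12.1, 25.9 and 26.5 in KO3 (CPM, tumours in the order of their numbers). Cd53, a tetraspanin, was at 72.2, 22.9, 22.2 and 20.997 in WT, 61.7, 41.5 and 31.7 in KO1, 29.4, 34.1 and 26.4 in KO2 and 29.5, 33.3 and 35.6 in KO3. Laptm5, a lysosomal membrane protein of blood cells, was at 52.4, 26.5, 25.1 and 18.7 in WT, 43.1, 45.7 and 42.2 in KO1, 22.3, 25.1 and 19.99 in KO2 and 27.3, 23.9 and 38.8 in KO3. For both Cd53 and Laptm5 WT tumour 1 was the highest library and WT tumour 4 among the lowest, and WT and KO tumours overlapped. Coro1a, an actin-binding protein of leukocytes, was at 35.2, 16.5, 15.4 and 9.56 in WT, 16.7, 22.3 and 19.2 in KO1, 17.1, 13.8 and 11.1 in KO2 and 11.8, 12.4 and 20.98 in KO3. The geometric mean of the 4 genes was 46.6, 19.2, 19.1 and 13.96 CPM in WT tumours, 37.7, 33.0 and 27.1 in KO1, 22.3, 22.1 and 17.5 in KO2 and 18.4, 22.5 and 29.6 in KO3. By this mean WT tumour 1 was above every KO tumour, and WT tumours 2, 3 and 4 overlapped with KO2 and KO3.

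WT tumour 1 was above the other WT tumours in 40 of the 41 genes, against 38.6% of all genes, and at least 2 times the highest of them in 18, against 9.15%. Of the 13 tumours the highest was WT tumour 1 for 18 genes, against 20.1% of all genes. KO1 tumours 1, 2 and 3 were the highest for 13, 8 and 1 genes, against 14.7%, 7.25% and 8.44%, and KO2 tumour 3 for Gpnmb alone, against 3.65%. The lowest was WT tumour 4 for 32 genes, against 16.4% of all genes.

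**Figure D2:**
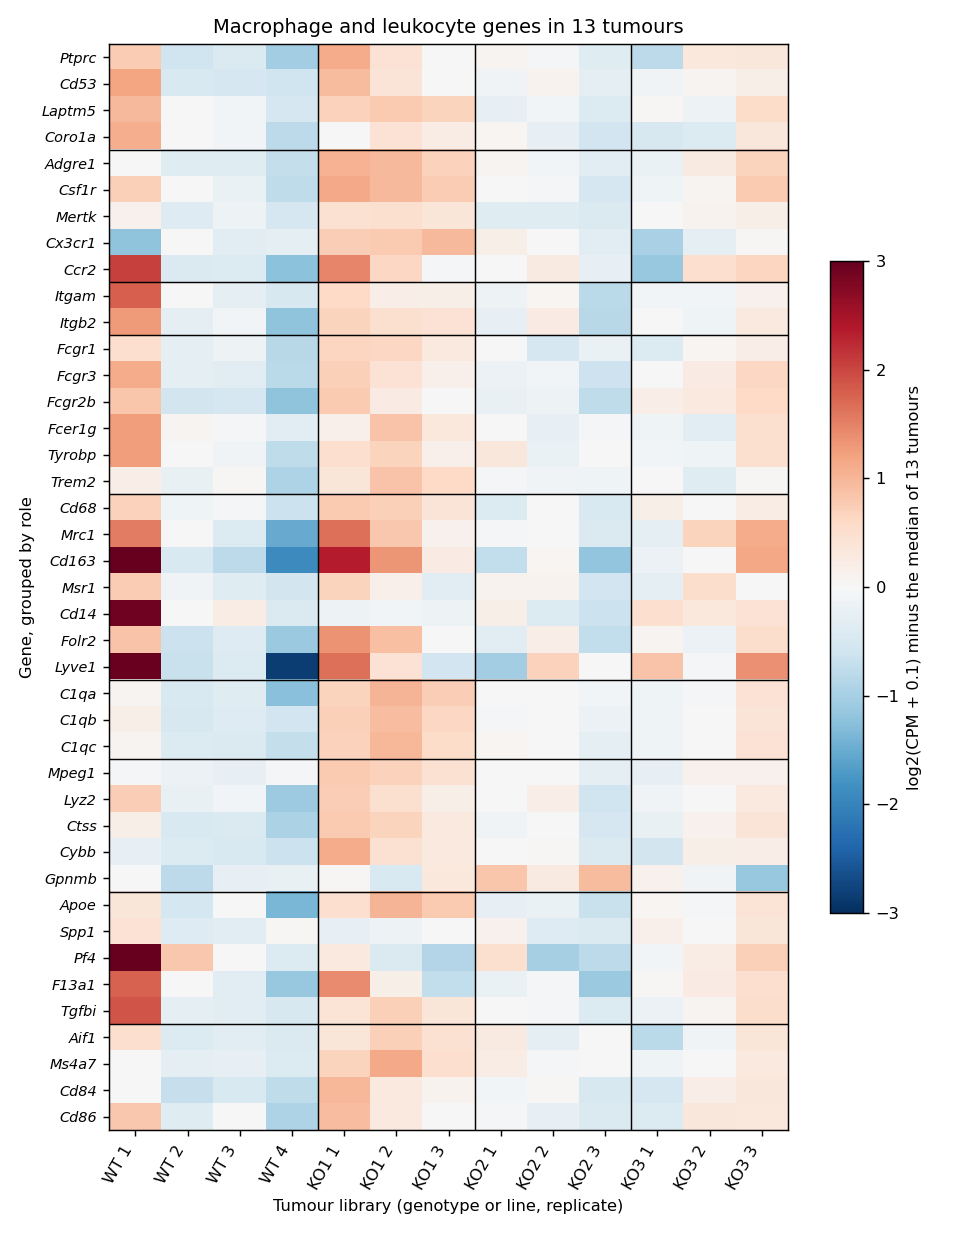
Level of the 41 genes (rows, grouped by role) in the 13 tumours (columns), as log2(CPM + 0.1) minus the gene's median over the tumours, with the colour scale ending at 3 and -3. WT tumour 1 and the KO1 tumours are mostly red and WT tumour 4 mostly blue, while Gpnmb is highest in KO2 tumour 3.

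The question of the main comparison was what loss of IRE1α in the cancer cells changed in the tumours. None of the 41 genes differed between the 9 KO and the 4 WT tumours at an adjusted p under 0.05 by edgeR, where 518 of 14200 genes tested (3.65%) passed. At an unadjusted p under 0.05 there were 10, 8 higher and 2 lower in KO, against 19.5% of all genes. DESeq2 called 4 at its adjusted threshold, Adgre1, C1qa and C1qc higher and Pf4 lower, and it called 1088 of all genes. With each line as a group of its own and WT set against the mean of the KO lines, edgeR called 5 as higher in KO, Adgre1, C1qa, C1qb, C1qc and Ms4a7, at adjusted p of 0.0183 to 0.0302. That fit called 1118 of all genes, so that both alternatives called more genes at large than the 518 of the main fit. Over all alternatives the adjusted p ran from 0.0183 to 0.342 for Adgre1, 0.0248 to 0.284 for C1qa, 0.0253 to 0.330 for C1qb, 0.0242 to 0.302 for C1qc and 0.0235 to 0.389 for Ms4a7. Without line KO1 the log2 fold changes of these 5 were between 0.27 (Ms4a7) and 0.46 (C1qa). All 41 passed the filter on low counts. Of them 28 had a fold change above 0, against 50.3% of all genes, and the median log2 fold change was 0.23 against 0.0017 over all genes.

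C1qa and Adgre1 had the highest fold changes of the 41. C1qa was at 112, 76.8, 82.5 and 44.5 in WT, 169, 216 and 176 in KO1, 106, 107 and 101 in KO2 and 96.4, 104 and 142 in KO3 (CPM). The KO1 tumours and KO3 tumour 3 were above WT tumour 1, and the 5 other KO tumours lay between WT tumour 1 and the other WT tumours. The log2 fold change of C1qa was 0.77 ± 0.24 (SE; adjusted p = 0.0925 by edgeR). C1qc was at 85.4, 60.1, 59.6 and 49.3 in WT, 131, 159 and 117 in KO1, 83.3, 80.4 and 65.7 in KO2 and 72.9, 79.9 and 108 in KO3, with a log2 fold change of 0.64 ± 0.21 (adjusted p = 0.112 by edgeR), and C1qb had 0.58 ± 0.21 (adjusted p = 0.135). The 3 subunits, which form 1 protein, had the same order of line means, with KO1 above KO3 and KO3 above KO2, and WT and KO tumours overlapped through WT tumour 1 alone. Adgre1 had a log2 fold change of 0.75 ± 0.24 (adjusted p = 0.102 by edgeR). For Adgre1 and the C1q genes, all 9 KO tumours lay above WT tumours 2, 3 and 4. The same was true of Cd53 and Ms4a7, so that 6 of 41 genes had this order, against 3.94% of all genes. Counting WT tumour 1 as well, no gene of the 41 had all KO tumours above all WT tumours or all below, against 1.9% of all genes for each direction.

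Csf1r, the receptor for colony-stimulating factor 1, was at 53.4, 32.6, 28.2 and 19.0 in WT, 71.7, 63.7 and 55.7 in KO1, 32.3, 31.0 and 23.1 in KO2 and 29.8, 34.3 and 56.0 in KO3 (CPM), and WT and KO tumours overlapped. Its log2 fold change was 0.40 ± 0.30 (SE; adjusted p = 0.486 by edgeR). Among the other genes of macrophage identity, the fractalkine receptor Cx3cr1 had 0.60 ± 0.32 and the monocyte receptor Ccr2 had -0.20 ± 0.50. Cybb, the catalytic subunit of the phagocyte NADPH oxidase, had 0.64 ± 0.24 (adjusted p = 0.149 by edgeR), Cd84, an adhesion receptor, 0.60 ± 0.23, Ctss 0.57 ± 0.22, and Ms4a7 0.56 ± 0.20. The 4 general leukocyte genes ranged from -0.25 (Coro1a) to 0.38 (Ptprc), with adjusted p of at least 0.548 by edgeR.

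Pf4 and Cd14 had the lowest fold changes, with WT tumour 1 far above all other tumours in both. Pf4 was at 53.3, 8.74, 4.95 and 3.68 in WT, 6.11, 3.61 and 2.67 in KO1, 6.91, 2.43 and 2.82 in KO2 and 4.64, 5.78 and 8.17 in KO3 (CPM). WT tumour 1 was 6.09 times the highest other WT tumour, and the other WT tumours overlapped with the KO tumours. The log2 fold change was -1.85 ± 0.54 (SE; adjusted p = 0.0691 by edgeR), and -0.33 without WT tumour 1. Without WT tumour 4 Pf4 passed, at -2.19 on the log2 scale (adjusted p = 0.0481 by edgeR), and over all alternatives its adjusted p ran from 0.0378 to 0.647. Cd14 was at 53.1, 6.91, 8.05 and 5.09 in WT, 6.17, 6.53 and 6.17 in KO1, 7.79, 5.19 and 4.37 in KO2 and 9.79, 8.60 and 9.29 in KO3, again highest in WT tumour 1 by 6.59 times. Its log2 fold change was -1.33 ± 0.46 (adjusted p = 0.119 by edgeR) and 0.04 without WT tumour 1.

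**Figure D3:**
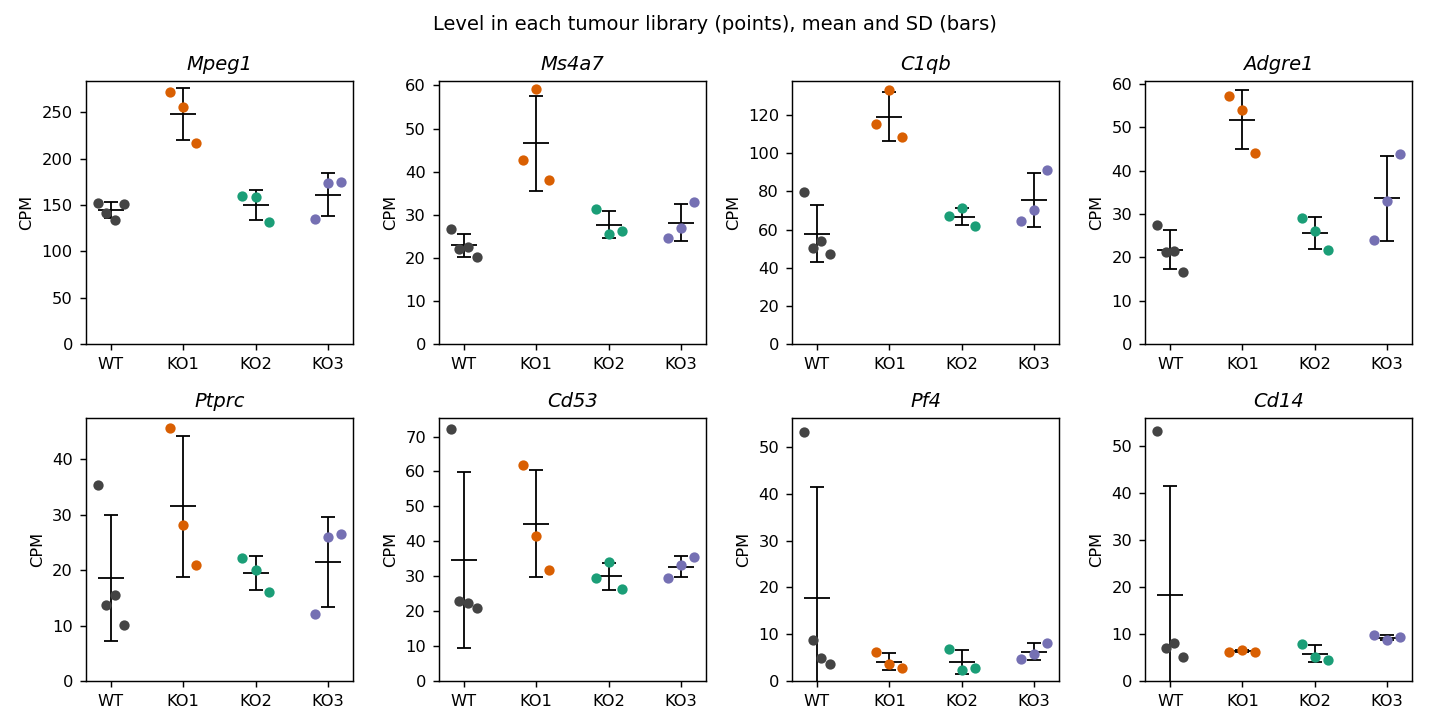
Level in each tumour (points, CPM) by line for 8 genes, with the mean and SD of each group (bars), n = 4 WT and 3 for each KO line. For Mpeg1, Ms4a7, C1qb and Adgre1 the 3 KO1 points stand above all others, and for Adgre1 KO3 tumour 3, at 43.8 CPM, nearly reaches the lowest of them, at 44.2 CPM. For Pf4 and Cd14 the point near 53 CPM is WT tumour 1.

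Leaving out WT tumour 1 moved many values. The number of genes with a fold change above 0 went from 28 to 40 of 41, against 51.4% of all genes, and the median log2 fold change from 0.23 to 0.56. At an unadjusted p under 0.05 there were 21 genes, all higher in KO, against 19.6% of all genes, and none passed after adjustment by edgeR. Cd163, a scavenger receptor for haemoglobin, went from -0.94 to 1.63, and Lyve1, a hyaluronan receptor of some tissue macrophages and of lymph vessels, from -0.61 to 1.55. Ccr2 went from -0.20 to 0.97 and the mannose receptor Mrc1 from 0.26 to 1.03. Without WT tumour 4 instead, 20 genes were above 0 and the median was -0.0012, and without line KO1 21 genes were above 0 and the median was 0.0036. At an unadjusted p under 0.05 these fits gave 8 and 7 genes, against 19.5% and 18.7% of all genes. The neutrophil, muscle and erythroid transcripts that stand out in WT tumour 1 were given above, and their part in these values was not tested.

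**Figure D4:**
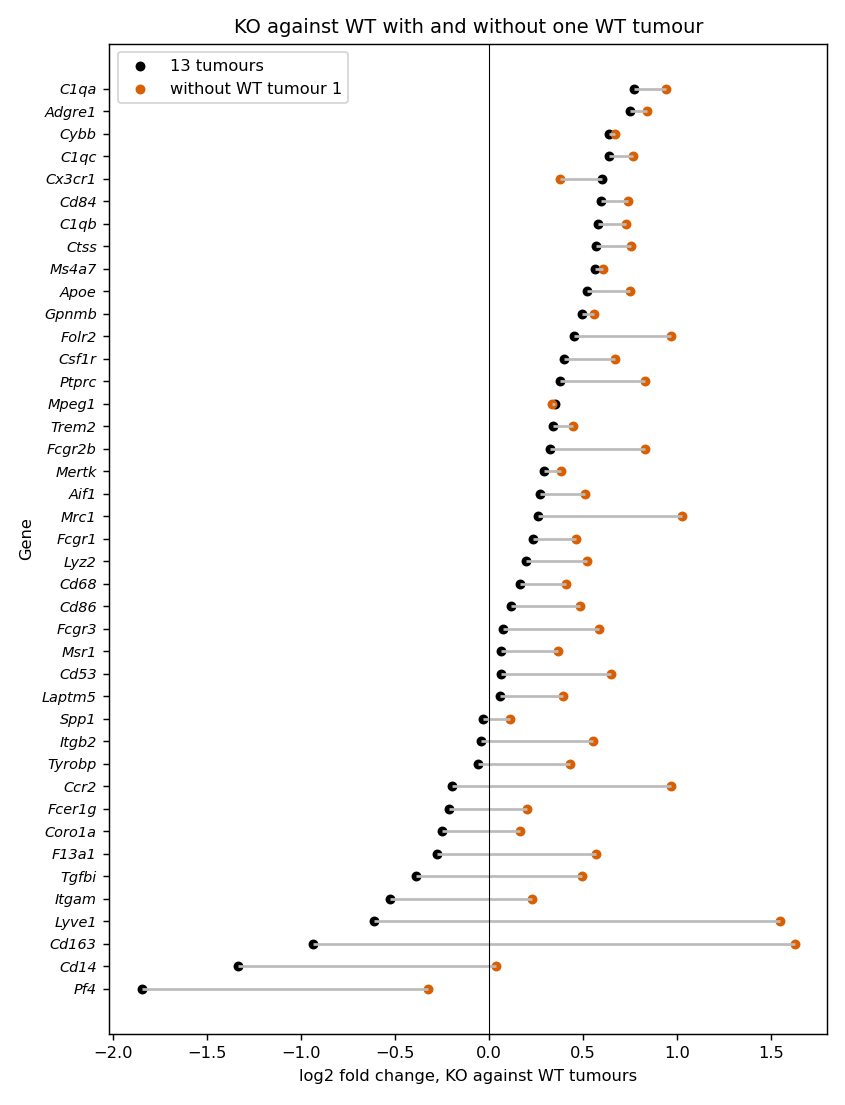
Log2 fold change of KO against WT for the 41 genes (x axis), with all 13 tumours (black) and without WT tumour 1 (orange), 1 line a gene. Orange points stand to the right of black ones for most genes and above 0 for 40 of 41, all but Pf4.

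Among the scavenger receptors and other surface genes, Cd163 was at 55.0, 3.40, 2.68 and 1.18 in WT, 24.8, 12.1 and 5.65 in KO1, 2.80, 4.95 and 2.02 in KO2 and 4.18, 4.73 and 10.7 in KO3 (CPM). WT tumour 1 was 16.2 times the highest other WT tumour, and KO1 tumour 1 the next. Lyve1 was at 23.1, 1.76, 2.15 and 0.313 in WT, 9.20, 3.90 and 1.88 in KO1, 1.35, 4.66 and 2.87 in KO2 and 5.23, 2.77 and 7.63 in KO3, with WT tumour 1 at 10.8 times the highest other WT tumour. The macrophage integrin subunit Itgam was at 75.4, 21.8, 18.1 and 15.5 in WT, 33.0, 25.1 and 24.7 in KO1, 19.7, 22.6 and 12.5 in KO2 and 20.5, 20.5 and 23.8 in KO3, and again WT tumour 1 stood alone. Its partner Itgb2 was at 33.2, 11.2, 12.8 and 5.88 in WT, 21.8, 19.2 and 18.5 in KO1, 11.4, 16.2 and 7.67 in KO2 and 13.6, 12.4 and 16.7 in KO3. Both integrin genes are also expressed by neutrophils, whose markers were high in WT tumour 1, and the part of neutrophils in these levels was not tested. Cx3cr1 was the exception to this order, at 5.53 CPM in WT tumour 1, the lowest of all 13 tumours, and 21.6 to 25.4 CPM in KO1.

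Of the 6 Fc receptor and adaptor genes, Fcgr3, Fcgr2b, Tyrobp and the shared receptor chain Fcer1g were highest in WT tumour 1, and the high-affinity receptor Fcgr1 and Trem2 in a KO1 tumour. The activating receptor Fcgr3 was at 45.4 CPM in WT tumour 1 and 12.0 to 17.3 CPM in the other WT tumours, the inhibitory receptor Fcgr2b at 56.8 against 13.8 to 22.7, and the adaptor Tyrobp at 49.9 against 12.3 to 20.7. The KO tumours ran from 13.6 to 34.6 CPM for Fcgr3, and from 18.2 to 33.4 for Tyrobp. None of the 6 had an unadjusted p under 0.05 in KO against WT by edgeR, and DESeq2 called none of them. Among the secreted genes, F13a1, a clotting factor subunit of monocytes, was at 119 CPM in WT tumour 1 and 95.01 CPM in KO1 tumour 1, and at most 50.3 CPM elsewhere. Tgfbi, a matrix protein induced by TGF-β, was at 77.9 CPM in WT tumour 1 and 15.0 to 34.3 CPM in the others. Apoe had another order, with 661 to 946 CPM in KO1 and 178 to 592 CPM in WT.

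The surface genes Mrc1 and Folr2, known from tissue macrophages, were highest in KO1 tumour 1. Mrc1 was at 117 CPM in KO1 tumour 1 and 107 CPM in WT tumour 1, against 13.01 to 36.5 CPM in the other WT tumours. The folate receptor Folr2 was at 9.05 to 23.2 CPM in KO1 and 4.15 to 16.5 CPM in WT. Msr1, the class A scavenger receptor, was at 15.0 to 37.4 CPM in WT and 14.7 to 35.2 CPM in KO, and Cd68 at 20.3 to 51.2 and 23.1 to 54.5 CPM. All 4 overlapped between WT and KO. Among the lysosomal genes Lyz2 was at 151 to 533 CPM in WT and 213 to 534 CPM in KO, Ctss at 80.8 to 175 and 109 to 269 CPM, and Cybb at 17.6 to 23.5 and 18.8 to 60.4. Aif1, the calcium-binding protein IBA1, ran from 3.85 to 11.2 CPM and Cd86 from 1.18 to 4.48 CPM over the 13 tumours. By role, the median log2 fold change in KO against WT was 0.64 for the C1q genes, 0.49 for the lysosomal genes, 0.42 for Aif1, Ms4a7, Cd84 and Cd86, and 0.40 for the macrophage identity genes. It was 0.15 for the Fc receptors and adaptors, 0.06 for the scavenger receptors and for the general leukocyte genes, -0.27 for the secreted genes and -0.29 for the integrins, against 0.0017 over all genes. Without WT tumour 1 the medians of the integrins and secreted genes turned, to 0.39 and 0.50. Those of the scavenger receptors, general leukocyte genes, Fc receptors and adaptors, and macrophage identity genes became 0.97, 0.52, 0.45 and 0.67, and those of the 3 other groups moved by less than 1.5 times.

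The 3 KO lines were then compared with each other in a fit of the 13 tumours. By edgeR's F test over the lines 4 of 41 genes passed, where 427 of 14483 genes (2.95%) passed, and at an unadjusted p under 0.05 there were 17 genes, against 18.5% of all genes. All 4 were highest in KO1. Mpeg1 was at 152, 141, 134 and 152 in WT, 272, 256 and 217 in KO1, 159, 159 and 132 in KO2 and 135, 174 and 175 in KO3 (CPM). Its mean was 248 ± 28.2 CPM for KO1, 150.2 ± 15.9 for KO2, 161 ± 23.0 for KO3 (SD, n = 3 each) and 145 ± 8.73 for WT (n = 4). Its adjusted p was 0.0210 by edgeR, and the 4 WT tumours lay among those of KO2 and KO3. Ms4a7 was at 26.7, 22.1, 22.5 and 20.2 in WT, 42.7, 59.1 and 38.1 in KO1, 31.4, 25.5 and 26.3 in KO2 and 24.6, 26.9 and 33.0 in KO3, with an adjusted p of 0.0402 by edgeR. C1qb was at 79.8, 50.6, 53.9 and 47.0 in WT, 116, 133 and 108 in KO1, 67.3, 71.1 and 62.1 in KO2 and 64.4, 70.3 and 91.3 in KO3, with an adjusted p of 0.0442 by edgeR. Adgre1 was at 27.5, 21.4, 21.5 and 16.6 in WT, 57.2, 54.1 and 44.2 in KO1, 29.1, 26.1 and 21.8 in KO2 and 24.0, 33.0 and 43.8 in KO3, with an adjusted p of 0.049987 by edgeR. For all 4 genes the lowest KO1 tumour was above the highest KO2 or KO3 tumour, narrowly for Adgre1. Over all alternatives the adjusted p by edgeR ran from 0.0148 to 0.0994 for Mpeg1, 0.0235 to 0.184 for Ms4a7, 0.00842 to 0.184 for C1qb and 0.0233 to 0.171 for Adgre1.

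Among all 41 genes, the mean was highest in KO1 for 36, against 41.6% of all genes, in KO3 for Cd14, Lyve1, Pf4 and Spp1, against 34%, and in KO2 for Gpnmb, against 24.4%. All KO1 tumours lay above all KO2 and KO3 tumours for 16 genes (39%), against 7.76% of all genes. These were Adgre1, the 3 C1q genes, Apoe, Cd68, Cx3cr1, Cybb, Fcgr1, Itgam, Itgb2, Laptm5, Mertk, Mpeg1, Ms4a7 and Trem2, a lipid receptor of macrophages. Against WT, all KO1 tumours lay above all WT tumours for 14 genes, against 11.5% of all genes, and above WT tumours 2, 3 and 4 for 34, against 21.5%. Cd14 was the 1 gene with all KO3 tumours above KO1 and KO2, against 4.66% of all genes, and no gene had all KO2 tumours above KO1 and KO3, against 2.17%.

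The count of 4 rested on single libraries. It was 0 without KO1 tumour 1 or 2 or without KO2 tumour 1 or 3, 1 without WT tumour 2 or 3, KO2 tumour 2 or KO3 tumour 2, and 2 without KO1 tumour 3, KO3 tumour 1 or KO3 tumour 3. It was 7 without WT tumour 4 and 11 without WT tumour 1, both with all 4 genes among them. The count of all genes moved too, at 128 to 1095 with single libraries left out against 427 as reported.

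Fibroblast markers moved with the same line, with a summed level of 8 genes of 2264 to 3274 CPM in KO1, 795 to 1138 in KO2, 849 to 1782 in KO3 and 507 to 2776 in WT tumours. Skeletal muscle markers were at 434 to 1084 CPM in KO1, 17.1 to 862 in KO2 and 1.48 to 5.94 in KO3. T cell markers were at 10.9 to 13.5 CPM in KO1, 6.31 to 8.29 in KO2 and 6.15 to 11.8 in KO3. Mast cell markers were at 11.7 to 21.7 CPM in KO1, 4.28 to 7.08 in KO2 and 6.97 to 9.59 in KO3. For the fibroblast and mast cell lists every KO1 tumour was above every KO2 and KO3 tumour. Muscle markers of KO1 overlapped with those of KO2, and T cell markers of KO1 with those of KO3. B and plasma cell markers were at 10.3 CPM or more in KO1, at most 7.85 in KO2 and at most 9.51 in KO3. Dendritic cell markers were at 22.9 to 34.8 CPM in KO1, 14.6 to 15.7 in KO2 and 19.3 to 27.8 in KO3. In the monocyte, endothelial, neutrophil, adipocyte and erythroid lists KO1 overlapped with KO2 and KO3. Monocyte markers were at 95.05 to 193 CPM in KO1, 132 to 158 in KO2 and 142 to 191 in KO3. Endothelial markers were at 102 to 138, 78.2 to 119 and 128 to 147 CPM in the same order. Neutrophil markers were at 7.52 to 11.6, 5.03 to 7.93 and 6.32 to 9.84 CPM. Apart from Camp, no gene of these lists was at 0 in all tumours. The part of these cell types in the line differences was not tested.

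The level of a macrophage gene per leukocyte transcript was read by dividing by the geometric mean of Ptprc, Cd53, Laptm5 and Coro1a. The spread over the 13 tumours (SD of log2 values) went from a median of 0.546 to 0.328 for the 37 other genes. It became smaller in 33 of 37 (89.2%), against 2203 of 14159 other genes (15.6%), whose median went from 0.283 to 0.563. Mpeg1, Spp1, Cx3cr1 and Gpnmb were the 4 whose spread did not become smaller. The tightest ratios were those of Fcgr3 and Lyz2, with SDs of 0.17 and 0.19, and the widest those of Lyve1, Cd163 and Pf4, at 1.08, 1.03 and 0.94.

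With this scaling none of the 41 genes passed in KO against WT tumours by edgeR, where 75 of 14200 genes (0.528%) passed, and at an unadjusted p under 0.05 there were 3, against 7.53% of all genes, while DESeq2 called Pf4 alone. The scaling moved the median of all genes to -0.21 on the log2 scale, while that of the 41 was 0.09, with 26 above 0 against 21.9% of all genes. The 41 include the 4 scaling genes, and scaling itself shifts genes that do not follow them, so this contrast is partly built in. Pf4 was at ratios of 1.14, 0.455, 0.259 and 0.264 in WT, 0.162, 0.109 and 0.0986 in KO1, 0.309, 0.110 and 0.161 in KO2 and 0.252, 0.257 and 0.276 in KO3. WT tumour 1 was the highest, and KO1 the lowest line in mean. The log2 fold change of Pf4 was -1.47 ± 0.37 (SE; adjusted p = 0.0721 by edgeR, and 0.0123 to 0.521 over the alternatives), and without WT tumour 1 it was -0.76. C1qa was at ratios of 2.41, 3.99, 4.32 and 3.19 in WT, 4.47, 6.54 and 6.499 in KO1, 4.76, 4.87 and 5.76 in KO2 and 5.24, 4.62 and 4.81 in KO3, so that all 9 KO tumours were above the 4 WT tumours. The same order held for Ctss, so that 2 of 41 genes had it, against 0.141% of all genes, and no gene had all KO ratios below all WT ratios, against 0.338%. Without scaling each order held for 1.9% of all genes, so the scaling also sets these shares. The log2 fold change of C1qa was 0.60 ± 0.28 (adjusted p = 0.620 by edgeR). Adgre1 was at ratios of 0.591, 1.11, 1.13 and 1.19 in WT, 1.51, 1.64 and 1.63 in KO1, 1.30, 1.19 and 1.25 in KO2 and 1.30, 1.47 and 1.48 in KO3, with KO2 tumour 2 just below WT tumour 4 and the other KO tumours above all WT tumours, and a log2 fold change of 0.50 ± 0.27 (adjusted p = 0.722 by edgeR). Cd14 had -0.97 ± 0.33 (adjusted p = 0.320 by edgeR), and -0.38 without WT tumour 1, whose ratio of 1.14 stood above the 0.164 to 0.532 of the other tumours.

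**Figure D5:**
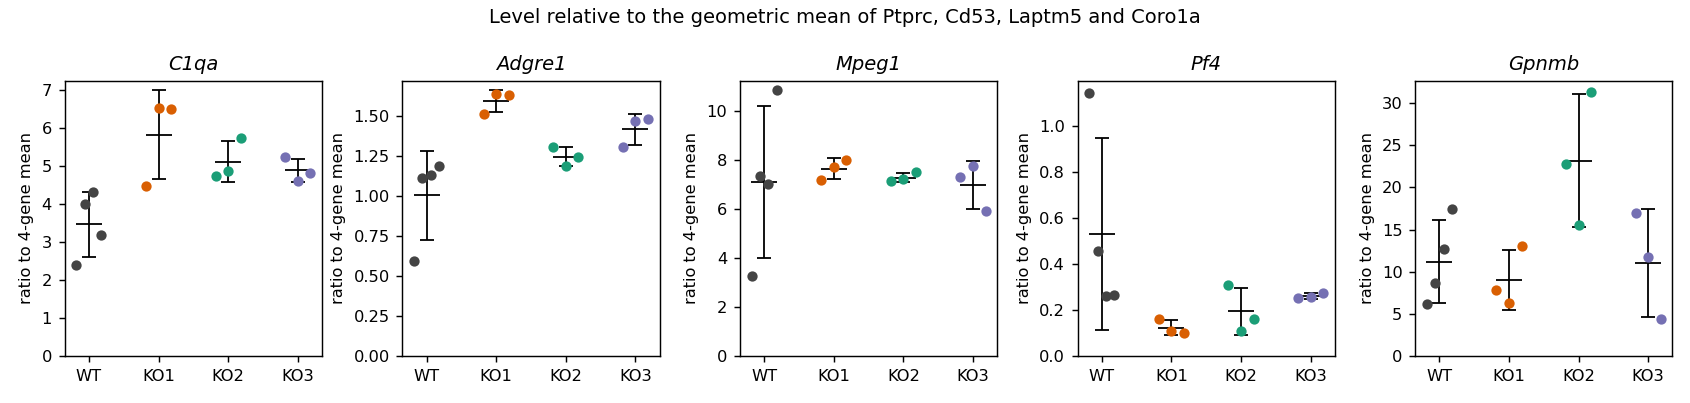
Ratio of 5 genes to the geometric mean of Ptprc, Cd53, Laptm5 and Coro1a in each tumour (points), with the mean and SD of each group (bars), n = 4 WT and 3 for each KO line. The C1qa points of all KO tumours stand above those of WT, whereas the Mpeg1 ratio, apart from WT tumours 1 and 4, lies within a narrow band.

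WT tumour 1 held a different mix of these transcripts from the other tumours. Its ratios to the 4 genes of Cx3cr1 (0.119), Adgre1 (0.591) and Mpeg1 (3.26) were the lowest of the 13, and those of Pf4 (1.14), Cd14 (1.14) and Cd163 (1.18) the highest. In WT tumour 4 the ratio of Mpeg1 (10.9) was the highest.

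Between KO lines, no gene passed after scaling by edgeR, where 0.525% of all genes passed, and 1 had an unadjusted p under 0.05, against 10.6%. DESeq2 was not run on this comparison. That gene was Gpnmb, at 284, 166, 242 and 243 in WT, 294, 207 and 353 in KO1, 507, 343 and 548 in KO2 and 313, 264 and 128 in KO3 (CPM) and at ratios of 6.11, 8.62, 12.7 and 17.4 in WT, 7.78, 6.26 and 13.1 in KO1, 22.7, 15.5 and 31.3 in KO2 and 17.0, 11.7 and 4.34 in KO3, with KO2 the highest line in mean, KO2 and KO3 overlapping, and an adjusted p of 0.363 by edgeR. Mpeg1, with the smallest p between lines in level, had a mean ratio of 7.66 ± 0.414 in KO1 (SD, n = 3). The means of KO2 and KO3 were 7.30 ± 0.200 and 6.99 ± 0.963 (SD, n = 3 each), and the lines overlapped. The mean ratio was highest in KO1 for 17 genes, against 8.63% of all genes, in KO3 for 18, against 27.8%, and in KO2 for 6, against 63.6%. Without scaling these shares of all genes were 41.6%, 34% and 24.4%. All genes were divided by a 4-gene mean of 27.1 to 37.7 CPM in KO1 and 17.5 to 22.3 CPM in KO2. That division lowers unrelated genes in KO1, so the scaled shares are set in part by the scaling, and no result is read from them. Without WT tumour 1 Cd14 and Gpnmb passed in the scaled test between lines. With single libraries left out, 25 to 1695 of all genes passed in this test, against 76 as reported. No result is read from the calls of Cd14 and Gpnmb.

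Of 24 regulators and signalling genes of myeloid cells, none passed by edgeR in KO against WT tumours, where 3.65% of all genes passed. At an unadjusted p under 0.05 there were 2 higher and 2 lower, against 19.5% of all genes, and DESeq2 called 1 (Runx1). None passed among KO lines either, against 2.95% of all genes, and 4 had an unadjusted p under 0.05, against 18.5%. Spi1, which encodes PU.1, was at 12.6, 5.04, 4.35 and 2.51 in WT, 7.04, 9.15 and 6.59 in KO1, 3.72, 4.80 and 3.71 in KO2 and 3.93, 3.68 and 6.31 in KO3 (CPM), highest in WT tumour 1 and next in KO1 tumour 2. Its log2 fold change was -0.18 ± 0.34 (SE; adjusted p = 0.808 by edgeR). Csf1, the ligand of Csf1r, was at 21.1 to 28.3 CPM in cells and 3.996 to 15.5 CPM in tumours, and Il34, the other ligand, at 30.9 to 45.3 and 10.3 to 23.4 CPM. Both ligands fell from cells to tumours, by 1.42 ± 0.18 and 0.96 ± 0.10 on the log2 scale (SE; adjusted p = 9.08e-07 and 1.90e-07 by edgeR).

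The 8 genes of natural killer and cytotoxic cells summed to 1.57 to 2.36 CPM in WT tumours, 3.87 to 8.62 in KO1, 3.15 to 3.90 in KO2 and 1.63 to 6.11 in KO3, none of them at 0 in all tumours. Of the 4 abundant enough to be tested, Gzmb, a granule protease, and Klrk1, an activating receptor, rose in KO tumours by edgeR, with log2 fold changes of 2.09 ± 0.46 (SE; adjusted p = 0.0258) and 1.49 ± 0.39 (adjusted p = 0.0491). They reached at most 0.990 and 3.49 CPM in any tumour. DESeq2 called both too, and 3.65% of all genes passed by edgeR. After scaling by the 4 leukocyte genes neither passed by edgeR, at 1.90 ± 0.59 (adjusted p = 0.201) for Gzmb and 1.25 ± 0.41 (adjusted p = 0.275) for Klrk1, and DESeq2 called neither. Of 6 tested T cell genes none passed by edgeR, 3 had an unadjusted p under 0.05, all higher, against 19.5% of all genes, and DESeq2 called 0. The other marker genes that passed by edgeR were lower in KO, and their lists were high in WT tumour 1. They were the neutrophil markers S100a9 (-5.71 ± 1.10, adjusted p = 0.0160), Il1b (-2.79 ± 0.70, adjusted p = 0.0422) and Clec4e (-2.22 ± 0.56, adjusted p = 0.0438), and the erythroid Hba-a2 (-1.97 ± 0.46, adjusted p = 0.0334). Csf3r, Mmp9 and Retnlg did not pass, nor did the erythroid Alas2, Hba-a1, Hbb-bs and Hbb-bt. DESeq2 called the erythroid Alas2, Hba-a2 and Hbb-bt but no neutrophil marker. After scaling S100a9 and Il1b passed by edgeR, and DESeq2 called Clec4e.

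In cultured cells 9 of the 41 genes were abundant enough to be tested in KO against WT, and 1 passed by edgeR, where 1808 of 12254 genes (14.8%) passed and 9.76% passed as lower. The labels name no separate cultures for the cell libraries, so their p-values may rest on technical spread alone. Mpeg1 was at 2.58 and 2.26 CPM in WT cells and 0.343 to 1.45 CPM, with a median of 0.802, in KO cells. It fell by 1.57 ± 0.41 on the log2 scale (SE; adjusted p = 0.0327 by edgeR) and did not pass without either WT library, without KO1 library 1 or without either KO2 library. Over the alternatives its adjusted p by edgeR ran from 0.0141 to 0.253. Gpnmb, Spp1, Mertk, Cd14, Cd68, Apoe, Coro1a and Itgb2 did not pass. Gpnmb, at -0.53 ± 0.18 (adjusted p = 0.0830 by edgeR), passed without either KO3 library, and its adjusted p ran from 0.0306 to 0.354 over the alternatives. Every tumour had 132 CPM or more of Mpeg1.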

How the data were processed

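RNA with poly(A) tails was sequenced as 50 bp read pairs from 8 libraries of cultured cells and 13 tumours. The authors deposited estimated counts per gene, not normalized, made with Trim Galore 0.6.7, STAR and Salmon 1.5.2 on GRCm38 per the submitters' processing notes; a second deposited table of counts scaled by transcript length was used as an alternative. The estimated counts were rounded to whole numbers. Genes with low counts were removed with filterByExpr, libraries were scaled by TMM, and groups were compared in R 4.3.3 by the F test of edgeR 4.0.16 (glmQLFit and glmQLFTest). P-values were adjusted by the Benjamini-Hochberg method over all genes tested, with a threshold of 0.05. Levels are CPM, the unit that scales each library to the same total, with TMM factors over all 21 libraries. In the scaled tests the library size was the geometric mean of the counts of Ptprc, Cd53, Laptm5 and Coro1a. Lengths are unions of exons in the GRCm38 annotation, and the methods were tested on simulated data.

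Tumours against cells used all 21 libraries, KO against WT pooled the 3 KO lines, and differences among KO lines were tested with an F test over the lines in a fit of the 13 tumours. Nothing says whether tumours came from separate mice. Alternatives were DESeq2 1.42.0, other scalings, no filter, the length-scaled table, a replicate block, single libraries or lines left out, WT tumours 3 and 4 summed or WT tumours 1 and 4 left out, lines as groups, and a leukocyte covariate. Of same-numbered libraries, 3 of 18 pairs of tumours and 2 of 12 pairs of cell libraries had a correlation of deviations over 0.1. With 2 cell libraries in a group, each cell value occurs for both numbers, so those 2 pairs are 1 value. Differently numbered pairs were not compared. Whether the numbers pair samples therefore cannot be told, and the main fits used no replicate block. Genes named with every library were the 4 leukocyte genes, Adgre1, Csf1r, the C1q genes, all that passed a tumour test between genotypes or lines, and the 3 with the smallest p in each. Other genes given per library or by range were chosen after their values were seen. The genes and marker lists were chosen with earlier results of these data known. Figures were drawn with matplotlib 3.10.9.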

Additional observations from a re-analysis of the deposited data

Results flagged for a closer look

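Of 84 sets of libraries examined, each a gene or the 4-gene mean in the 4 WT tumours or the 9 KO tumours, 20 had 1 library far from the others by Dixon's test, which chance gives in about 5 of 100 independent sets. In 12 of them it was WT tumour 1. Among the WT tumours it stood apart for Cd53 (72.2 CPM), Ccr2 (67.7 CPM), Itgam (75.4 CPM), Fcgr3 (45.4 CPM), Fcer1g (33.7 CPM), Cd163 (55.0 CPM), Cd14 (53.1 CPM), Lyve1 (23.1 CPM), Pf4 (53.3 CPM), Tgfbi (77.9 CPM), Aif1 (9.81 CPM) and the geometric mean of the 4 leukocyte genes (46.6 CPM). Each of these values was the highest of the WT tumours. In the 8 other sets the library was KO1 tumour 1, the highest of the 9 KO tumours for Ptprc (45.6 CPM), Cd53 (61.7 CPM), Ccr2 (45.1 CPM), Cd163 (24.8 CPM), Cybb (60.4 CPM), F13a1 (95.01 CPM), Cd84 (39.8 CPM) and Cd86 (4.48 CPM). These KO tumours come from 3 lines. The sets are not independent, since the genes were read in the same libraries and many vary together. The count of 20 therefore cannot be weighed against the 5 of 100.

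The KO lines differed by edgeR for Mpeg1 (adjusted p = 0.0210), Ms4a7 (adjusted p = 0.0402), C1qb (adjusted p = 0.0442) and Adgre1 (adjusted p = 0.049987), each with the highest mean in KO1.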

How the results depend on the processing

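In KO against WT tumours, 0 of the 41 genes passed as reported. The count was 4 by DESeq2, 5 with the lines as groups (Adgre1, C1qa, C1qb, C1qc and Ms4a7) and 3 with the leukocyte covariate, and 0 to 1 with single libraries left out. Of all genes 518 passed as reported, against 1088 by DESeq2, 332 with no filter, 246 with WT tumours 3 and 4 summed, 89 without WT tumours 1 and 4, 1118 with the lines as groups, 297 without KO1, 123 without KO2 and 154 to 594 with single libraries left out. After scaling by the leukocyte genes, 1 of the 41 passed by DESeq2, with no filter, with the lines as groups, without KO3 or with Ptprc alone, always Pf4, and 0 with single libraries left out. Of all genes 75 passed, against 177 with no filter, 39 with WT tumours 3 and 4 summed, 297 with the lines as groups, 149 without KO3, 165 with Ptprc alone and 37 to 444 with single libraries left out. Among KO lines 4 of the 41 passed, against 2 in the length-scaled table, 13 without WT tumours 1 and 4 and 0 to 11 with single libraries left out. Of all genes 427 passed, against 1262 without WT tumours 1 and 4 and 128 to 1095 with single libraries left out. Scaled, 3 passed among lines without WT tumours 1 and 4 and 0 to 2 with single libraries left out. Of all genes 76 passed, against 537 with no filter, 165 with WT tumours 3 and 4 summed, 2898 without WT tumours 1 and 4, 169 with Ptprc alone and 25 to 1695 with single libraries left out. In tumours against cells the count stayed at 40, with 11760 to 12055 of all genes, and in KO against WT cells it was 0 to 2, with 378 to 2221 of all genes, with single libraries left out. The cause of these changes was not tested. Of the values of single genes under these alternatives, 2270 kept their side of the threshold and, where called, their direction, 32 passed where they had not, and 46 no longer passed.

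With the replicate number as a block, 98 of all genes passed in KO against WT tumours, 29 after scaling, 358 among KO lines after scaling, 1 of the 41 (Mpeg1) among KO lines and 0 in cells.

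The 3 tumours or 2 cell libraries of each KO line, 4 tumours and 2 cell libraries of WT, and a single WT line, limit what these tests can show. WT tumour 1, WT tumour 4 and line KO1 each moved the median of the 41 genes.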
